A study of Mus musculus with 8 samples.

Results

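The genes described here are 9 growth factor receptors and ligands of blood cells: Flt3, Kit, Csf1r, Il34, Csf1, Csf2ra, Csf2rb, Csf3r and Il3ra. They were read from every non-control probe that carries one of these names, 16 probes of 55681 on the array and 9 genes of 36095. A gene with several probes was read first from its main probe, which was chosen by the highest mean log2 signal over all 8 arrays, a value that does not use the groups. The other probes are given wherever they differ from it. A gene entered the test where 4 or more of the 8 arrays had its main probe well above background. That left 8 of the 9 genes and 19814 genes in all; Csf1 was not tested.

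The cells were plasmacytoid dendritic cells (pDC), the dendritic cells that make type I interferon when they sense nucleic acids. They were grown from bone marrow precursors of female BALB/c mice in mouse Flt3 ligand, a growth factor that both groups therefore received, and were sorted with magnets and by flow cytometry into Sca-1- cells (n = 4) and Sca-1+ cells (n = 4). Ly6a encodes Sca-1, a surface protein long used to mark early blood-forming cells, and the series asks whether it separates stages of pDC development. Each sample went on 1 single-colour Agilent array, and the samples with the same replicate number, 1 Sca-1- and 1 Sca-1+, lay on the same slide. Replicates 1 to 3 and replicate 4 were scanned on different days and read with different extraction protocols. The Sca-1- sample always took array position 1 and the Sca-1+ sample position 2, so position and group cannot be told apart. The labels do not say whether replicates are separate cultures or mice, so a p-value speaks only of the spread among these 8 samples, and that spread may be technical.

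Flt3, Kit and Csf1r are receptor tyrosine kinases of the same structural class. Flt3 drives dendritic cell development, Kit is the receptor of stem cell factor on early progenitors and mast cells, and Csf1r controls monocytes and macrophages. Csf1r has a pair of ligands, Csf1 and Il34, which are unrelated in sequence. The other members are cytokine receptor chains: Csf2ra and Il3ra bind GM-CSF and interleukin 3 and signal through the shared chain Csf2rb, and Csf3r is the receptor of G-CSF on granulocytes.

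What a probe can tell depends on its sequence, so parts of the probes that the results turn on are shown as the array files give them, each 30 of 60 bases, 5′ to 3′, with positions in mouse build mm9. The Il34 probe is the only one for that gene, and it stands for the gene that differed most clearly (chr8:113265865-113265894, minus strand).
Il34: aagaacgacggggtgcctcctaggatccca
The 3 Flt3 probes lie apart on the gene and did not give the same difference (chr5:148142606-148142635, chr5:148178526-148178555 and chr5:148174163-148174192, minus strand, in this order).
Flt3 main probe: agatgctgtctgccattactccaaagtgac
Flt3 probe A_55_P2055242: cgtggatcttctctcaagcctcatttcctt
Flt3 probe A_66_P126155: tttctggggccacacagcgagaccctgtct
Csf2rb has a close paralog, Csf2rb2, and the main probes of both genes can be aligned without gaps over 42 bases, 31 of them identical. In the stretch shown, capitals mark the 3 bases that differ (chr15:78181197-78181226, plus strand, and chr15:78113145-78113174, minus strand).
Csf2rb: ggcagatcaaAtgtCccttggtctCtgttc
Csf2rb2: ggcagatcaaGtgtTccttggtctAtgttc
The Csf3r probe holds a stretch that recurs in probes of other genes, and capitals mark the 20 bases shared exactly with other probes (chr4:125721508-125721537, plus strand).
Csf3r: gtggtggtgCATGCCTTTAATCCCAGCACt

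Levels below are log2 signals minus the 75th percentile of the same array, so a level of 0 is that percentile, and a level of one probe does not compare with that of another. Between 45.9% and 54.9% of spots per array were well above background, and 0 spots were saturated. The 75th percentile of signal was 152 to 232 on the arrays of replicates 1 to 3 and 434 and 396 for the arrays of replicate 4. Ly6a, the gene behind the sort, was 4.65 ± 0.24 (SE) higher in Sca-1+ samples on the log2 scale, which checks the labels only. All 18 pDC markers were well above background on all 8 arrays.

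Il34, the alternative ligand of Csf1r, was the member that rose in Sca-1+ pDC. In Sca-1- replicates 1 to 4 its level was -1.44, -0.70, -0.78 and -0.61. In Sca-1+ replicates 1 to 4 it was 0.04, 0.32, 0.44 and 0.29. Every Sca-1+ sample lay above every Sca-1- sample, and the lowest value by some distance was that of Sca-1- replicate 1. The means were -0.89 ± 0.38 (SD, n = 4) and 0.27 ± 0.17 (SD, n = 4), a difference of 1.16 ± 0.20 (SE) on the log2 scale, or 2.23-fold (limma, adjusted p = 0.0304, with a 95% interval of 0.69 to 1.62 before adjustment). Within slides 1 to 4 the difference was 1.49, 1.03, 1.22 and 0.90, higher in Sca-1+ on 4 of 4 slides. Within the scan day that holds replicates 1 to 3 it was 1.24 (limma, adjusted p = 0.0275), and the other day holds 1 sample a group. Its probe lies at 113265835 to 113265894 on chromosome 8 and was well above background on all 8 arrays.

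The call on Il34 depended on the arrays used. In fits without 1 of the arrays the difference was 0.97 to 1.25, and it passed in 2 of 8 such fits, those without Sca-1- replicate 1 or Sca-1- replicate 4 (limma, adjusted p = 0.0234 to 0.121 over the 8). Without both samples of a replicate number it was 1.05 to 1.24 and passed only without replicate 4 (limma, adjusted p = 0.0275 to 0.308).

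Csf1r, the receptor of that ligand, had lower levels in Sca-1+ pDC on its main probe, by an amount that passed with the slide as a block and not in the unpaired fit of all 8 arrays. In Sca-1- replicates 1 to 4 its level was 4.81, 4.78, 4.66 and 4.04. In Sca-1+ replicates 1 to 4 it was 3.74, 3.65, 3.68 and 2.45. The groups did not overlap, and replicate 4 was the lowest sample of both. The difference was -1.19 ± 0.32 (SE) on the log2 scale, 2.29-fold lower, from a mean of 4.57 ± 0.36 (SD, n = 4) to 3.38 ± 0.62 (SD, n = 4). In the unpaired fit this did not pass (limma, adjusted p = 0.171), but the fit blocked by slide did call it (limma, adjusted p = 0.00639). Within slides 1 to 4 the difference was -1.07, -1.14, -0.98 and -1.59, lower in Sca-1+ on 4 of 4 slides. Without replicate 4, which leaves the arrays of 1 scan day, it was -1.06 and passed unpaired (limma, adjusted p = 0.00446).

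The 3 Csf1r probes disagreed in size. The main probe begins at base 3806 of the transcript that the files name, and the others at bases 2871 and 1841. The probe at base 2871 differed by -0.41 ± 0.23 (SE), with -0.13, -0.10, -0.49 and -0.93 on slides 1 to 4, and did not pass. The probe at base 1841 differed by -0.03 ± 0.28 (SE), with 0.32, -0.20, -0.06 and -0.18 on the slides. On both of these probes the groups overlapped. Averaged over the probes, the Csf1r difference was -0.54 (limma, adjusted p = 0.603). Whether the fall on the main probe is one of all Csf1r transcripts was not tested.

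Csf1, the first-known ligand of Csf1r, was near or below background. Its main probe, present in 10 spots, was well above background on 1 array, that of Sca-1- replicate 4, and the other 2 probes on none. The main probe's levels of -3.81, -4.63, -3.82 and -4.55 (Sca-1-) and of -3.87, -4.89, -4.81 and -5.20 (Sca-1+) overlapped. No fold is given, since the brighter group's mean lay under the background bound of the dimmer one.

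**Figure D1:**
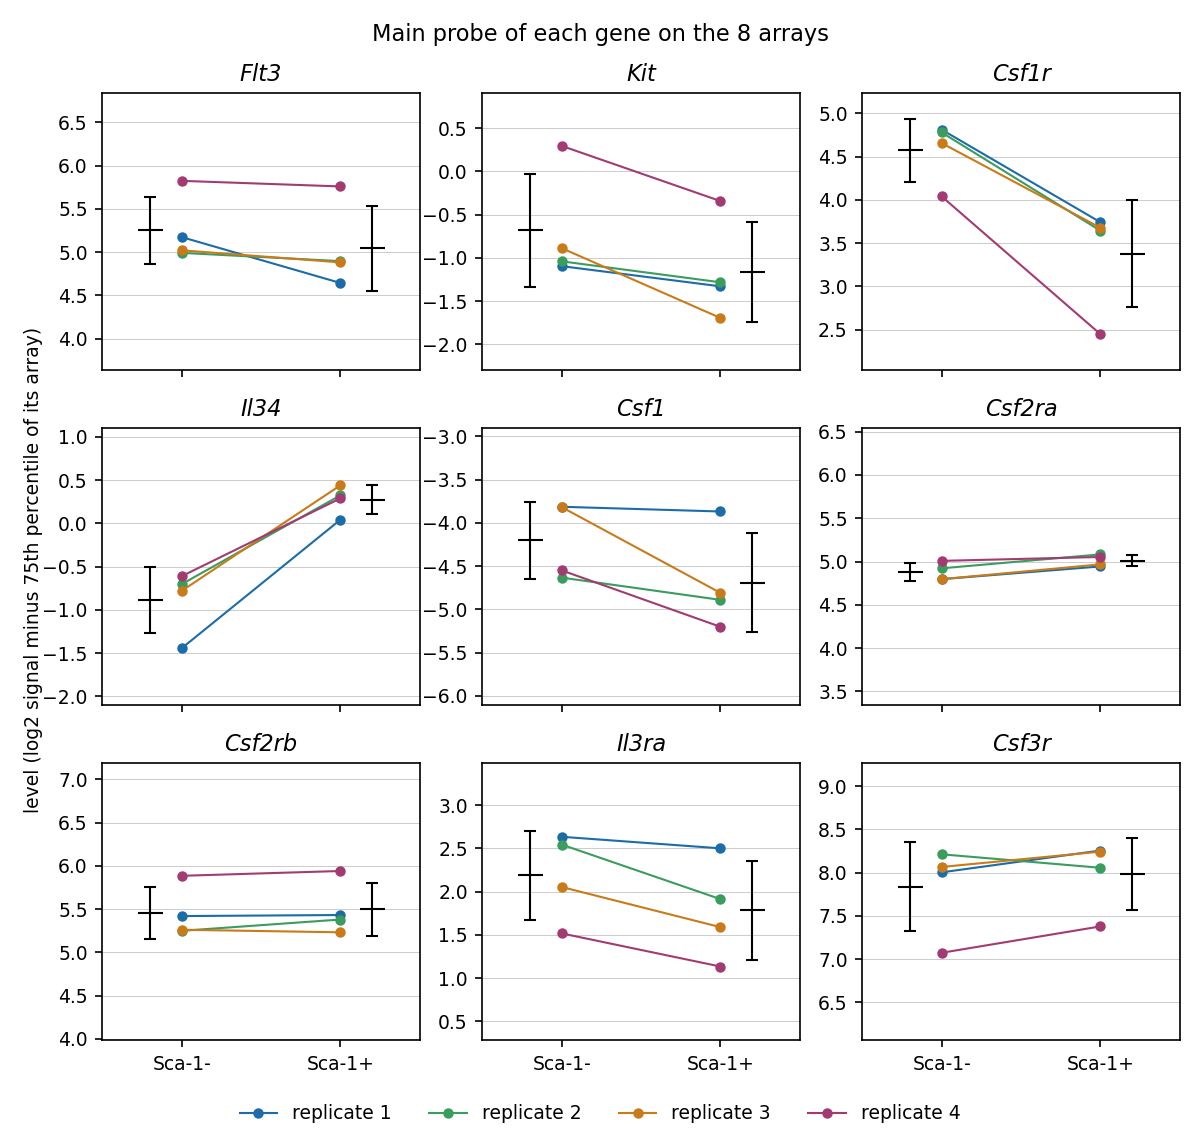
Level of the main probe of each member (log2 signal minus the 75th percentile of its array) in Sca-1- and Sca-1+ samples, with a coloured line joining the samples of 1 replicate number and black marks for the mean ± SD of 4 samples; each panel spans the same range of levels. Every line of Il34 goes up and every line of Csf1r goes down, while Csf1 was well above background on 1 array only and its levels are near the detection limit.

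Flt3, the receptor of the growth factor in the culture, did not pass on any probe. The main probe had levels of 5.17, 4.99, 5.02 and 5.82 in the Sca-1- samples and of 4.64, 4.90, 4.88 and 5.76 in the Sca-1+ samples (replicates 1 to 4 in order). The groups overlapped, and on both sides replicate 4 was the highest. The difference was -0.21 ± 0.28 (SE), with a 95% interval of -0.86 to 0.44, and it was negative on 4 of 4 slides (-0.53, -0.10, -0.14 and -0.06). Probe A_55_P2055242, which begins at base 1371 of the same transcript, differed by -0.26, also negative on each slide. Probe A_66_P126155, named after another transcript, differed by 0.10 and was lower in Sca-1+ only on slide 2. These 2 probes were lower on slide 4 than on slides 1 to 3 in both groups, with differences of -1.19 to -0.61, where the main probe was higher by 0.76 and 0.95. Flt3l, the gene of the ligand, differed by 0.23 and did not pass in either fit.

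Kit, the stem cell factor receptor, had lower levels in the Sca-1+ sample of every slide, but the difference did not pass in either fit. Its levels were -1.10, -1.04, -0.89 and 0.29 in Sca-1- replicates 1 to 4. They were -1.33, -1.28, -1.69 and -0.34 in Sca-1+ replicates 1 to 4. The groups overlapped because both samples of replicate 4 lay above all the others. The difference was -0.48 ± 0.38 (SE), with a 95% interval of -1.36 to 0.40, and the slides gave -0.23, -0.24, -0.81 and -0.64. With the slide as a block the interval was -0.79 to -0.17 before adjustment (limma, adjusted p = 0.0893). For Kitl, the gene of its ligand, no array was well above background.

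Il3ra, the interleukin 3 receptor's own chain, had the same pattern of signs. In the same order, levels were 2.63, 2.54, 2.05 and 1.52 for Sca-1- and 2.50, 1.91, 1.59 and 1.13 for Sca-1+. The groups overlapped, and replicate 4 was the lowest of each. The difference was -0.40 ± 0.34 (SE) unpaired and -0.40 ± 0.10 (SE) with the slide as a block, with slides at -0.13, -0.63, -0.46 and -0.38. It did not pass unpaired or with the slide as a block (limma, adjusted p = 0.977 and 0.0831). Among all tested genes, 17.8% were lower in Sca-1+ on all 4 slides and 18.4% higher on all 4, so a sign shared by 4 slides is common on these arrays.

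Csf2ra and Csf2rb, which together form the GM-CSF receptor, differed little. Csf2ra had levels of 4.80, 4.92, 4.80 and 5.01 in the Sca-1- samples and of 4.94, 5.08, 4.97 and 5.05 in the Sca-1+ samples (replicates 1 to 4 in order). Its difference was 0.13 ± 0.12 (SE), positive on 4 of 4 slides, with overlapping groups. It had the smallest standard error among the 8 tested members, and its 95% interval of -0.13 to 0.40 does not reach a change of 2-fold. The shared chain Csf2rb had levels of 5.42, 5.25, 5.26 and 5.88 in the Sca-1- samples and of 5.43, 5.38, 5.23 and 5.94 in the Sca-1+ samples (replicates 1 to 4 in order). It differed by 0.04 ± 0.21 (SE), its second probe by 0.08, and the paralog Csf2rb2 by 0.06. Of the 30 bases shown for Csf2rb and Csf2rb2, 27 are identical, so how far either probe also reads the other transcript is uncertain and was not tested.

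Csf3r, the granulocyte growth factor receptor, had overlapping groups and did not pass. Levels ran 8.0, 8.21, 8.07 and 7.07 over the Sca-1- replicates and 8.26, 8.06, 8.24 and 7.38 over the Sca-1+ replicates, with replicate 4 the lowest of each group. The difference was 0.14 ± 0.30 (SE), and it was positive on 3 of 4 slides. The capitals in its printed sequence recur exactly in 3 other probes, in 2 on the same strand and in 1 as the opposite strand. On either strand, 4 probes of other genes hold a stretch with at least 27 of 30 identical bases. Among the other members' probes only that of Csf2rb had such a match, to Csf2rb2. The Csf1r probe at base 1841 and Flt3 probe A_66_P126155 came just under that limit, each with a best match of 26 of 30 bases. What such near matches add to the signals of the Csf1r and Flt3 probes was not tested. All 4 probes that match Csf3r were well above background on all 8 arrays, against 42.2% of all probes. All 4 were lower on slide 4 than on slides 1 to 3, with a median of -0.81, against -0.91 for Csf3r and -0.03 for all probes well above background on all arrays. Whether the Csf3r signal comes from Csf3r RNA was not tested.

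**Figure D2:**
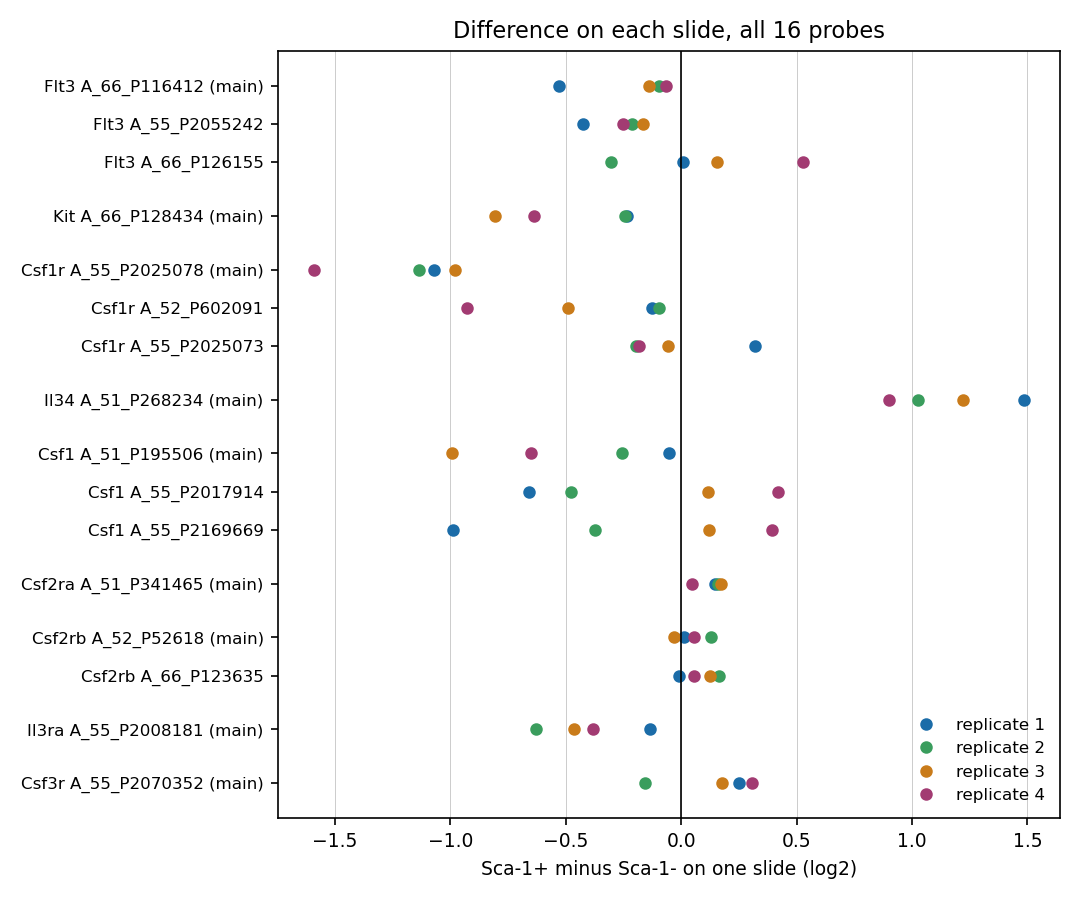
Difference between the Sca-1+ and the Sca-1- sample of each slide (log2, x axis) for all 16 probes of the members, 1 row a probe and 1 point a replicate number. All 4 points of Il34 lie above 0 and all 4 of the Csf1r main probe below -0.9, whereas the other Csf1r probes reach from -0.93 to 0.32; the Csf1 rows are near or below background.

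Among the 8 tested members, 1 was higher and 0 lower in the unpaired fit (limma, adjusted p under 0.05); before adjustment 2 of the 8 had a p under 0.05, Il34 and Csf1r. Over all tested genes 1.71% were called at the adjusted threshold, 0.126% higher and 1.58% lower. The share of all genes with an unadjusted p under 0.05 was not counted. With the slide as a block, 1 member was higher (Il34) and 1 lower (Csf1r), against 6.22% of all genes, 2.1% higher and 4.12% lower. The groups did not overlap for 2 of the 8 members, against 6.94% of all tested genes. The other 6 tested members passed in neither fit. Of the 8 differences 4 were positive and 4 negative, with a median of -0.08, against 0.03 over all tested genes. Because the genes were proposed with results of these arrays known, these counts are a description and no independent evidence.

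**Figure D3:**
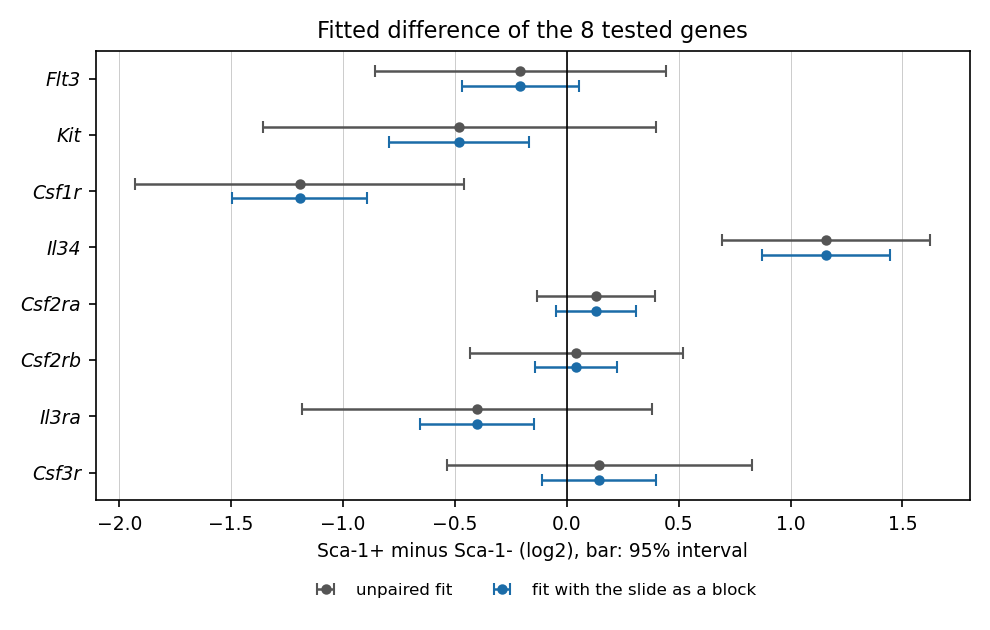
Fitted difference between Sca-1+ and Sca-1- samples (log2, x axis) for the 8 tested members, with 95% intervals before adjustment, unpaired (grey) and with the slide as a block (blue). Il34 and Csf1r are the members whose intervals exclude 0 in both fits, and Kit and Il3ra exclude it only in the blocked fit, where they do not pass after adjustment.

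Replicate 4 differed from replicates 1 to 3 for most members, in both groups and in different directions, as it did for many other genes. Against replicates 1 to 3, Kit was 1.30 higher in Sca-1- and 1.09 higher in Sca-1+, and Csf2rb was 0.57 and 0.59 higher. Csf3r differed by -1.02 and -0.81, and Il3ra by -0.89 and -0.87, in the same order. Csf2ra moved by 0.17 and 0.06 and Il34 by 0.36 and 0.02. The median of this offset over all tested genes, regardless of sign, was 0.48 in each group. In Sca-1- and Sca-1+, 9.92% and 14.8% of tested genes had a larger offset than Kit. The shares were 17.5% and 26.9% for Csf3r, 22.8% and 23.7% for Il3ra, and 42.3% and 40.9% for Csf2rb. The slide term takes up such offsets, and the standard error of the Csf1r difference was 0.32 without it and 0.12 with it.

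The genes whose centred levels over the 8 arrays were most like those of Il34 were Clybl and Pecr, which encode metabolic enzymes, and Evl, which encodes an actin regulator. The root mean square difference from Il34 was 0.21 on the log2 scale for each. Their own differences were 0.77, 0.88 and 0.97. For Csf1r they were Cntln (0.17), the survival gene Bcl2 (0.21) and Tspoap1 (0.22), with differences of -1.09, -1.41 and -1.28. None of these 6 genes passed unpaired, and all 6 passed with the slide as a block. They were picked by their levels on the same 8 arrays, group difference included. Similar differences and calls therefore follow from that choice and are no independent evidence.

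The counts of called genes in the pathway lists are set beside the share of all tested genes called, which was 1.71% unpaired and 6.22% with the slide as a block. Both shares are for an adjusted p under 0.05. The share of all tested genes with an unadjusted p under 0.05 was not counted. The unadjusted counts here and in the next paragraph therefore have no background, and whether they exceed it cannot be said. Among the receptor tyrosine kinases of this class and their ligands 5 of 9 were tested, and only Il34 and Csf1r passed in either fit; no array had Pdgfra or Pdgfrb well above background. Of 21 tested cytokine receptors and ligands related to Csf2ra, Csf2rb and Il3ra, 0 passed unpaired (limma; 3 had an unadjusted p under 0.05 unpaired and 6 with the block). With the slide as a block 2 were higher, the interleukin 21 receptor Il21r (0.69) and the shared gamma chain Il2rg (0.64, limma, adjusted p = 0.0406 and 0.0425). No array had Csf2, Csf3 or Il5 well above background, and 1 array had Il3. The list's median was 0.06.

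Downstream, 0 of 24 tested JAK-STAT and SOCS genes passed in either limma fit (2 had an unadjusted p under 0.05 unpaired and 7 with the block), and their median difference was 0.07. Of 53 tested adaptor, RAS-MAPK and PI3K-mTOR genes 0 passed unpaired (limma; 4 at an unadjusted p under 0.05 unpaired and 9 with the block), and with the slide as a block 3 were higher and 2 lower, with a median of -0.01. The higher ones included the Src family kinase Fyn (0.54) and the mTORC1 subunit Rptor (0.61). The lower ones were Spred1 (-0.88), an inhibitor of RAS-MAPK signalling, and the adaptor Dok2 (-0.53). Of 17 tested transcription factors known to act on these receptor genes 0 passed unpaired (limma; 2 at an unadjusted p under 0.05 unpaired and 11 with the block) and 1, Ets2, was lower with the slide as a block (-0.56). Spi1, which encodes PU.1, a regulator of Csf1r, differed by -0.36 and passed in neither fit. Among 5 tested genes for other partners of Il34 and for receptor shedding, 0 passed in either limma fit (1 at an unadjusted p under 0.05 unpaired and 2 with the block); Sdc1, whose product binds IL-34, differed by 0.36.

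Markers of other cell types were read on the same arrays. In these bulk samples fewer cells of a type and less RNA per cell cannot be told apart. Of 18 monocyte and macrophage markers besides Csf1r, 8 were well above background on all arrays and others, among them Mertk, Mrc1 and C1qc, on none. Adgre1 was well above background on 2 arrays and Fcgr1 on 1. Their summed linear level was 464 to 681 in Sca-1- and 603 to 949 in Sca-1+ samples, and without Ly6c1, which leads that sum, it was 88.0 to 94.3 in Sca-1- and 99.7 to 111 in Sca-1+ samples. With the slide as a block the Fc receptor gene Fcgr3 was lower (-0.52) and Ly6c1 higher (0.56). Of 12 neutrophil markers besides Csf3r, 6 were well above background on all arrays, and their summed level was 4.35 to 17.3 in Sca-1- and 2.98 to 12.8 in Sca-1+ samples. Of 12 stem and progenitor markers besides Kit, 5 were well above background on all arrays, and their summed level did not overlap, at 13.4 to 22.02 in Sca-1- and 5.40 to 7.82 in Sca-1+ samples. How far single genes lead this sum was not worked out. In that list Cd93 was lower in both fits (-1.98) and Egfl7 with the slide as a block (-1.23). Of its 9 tested genes, Kit included, 6 differences were negative and 3 positive, with a median of -0.14. The monocyte sum without Ly6c1 did not overlap either, and was higher in Sca-1+. The same held for the sum of 8 B cell markers, at 117 to 161.4 in Sca-1- and 161.7 to 185 in Sca-1+ samples. Of 12 mast cell, basophil and eosinophil markers besides Kit, the sum was 0.813 to 20.4 in Sca-1- and 0.902 to 24.7 in Sca-1+ samples. With the slide as a block, 4 of 18 tested pDC markers were higher and 0 lower, among them Irf7 (0.94). In that fit 3 of 10 tested conventional dendritic cell markers were higher and 2 lower. Over all tested genes 2.1% were higher and 4.12% lower with the block. In the unpaired fit 0 markers of either list passed. What these cells' RNA adds to the members' signals was not tested.

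**Figure D4:**
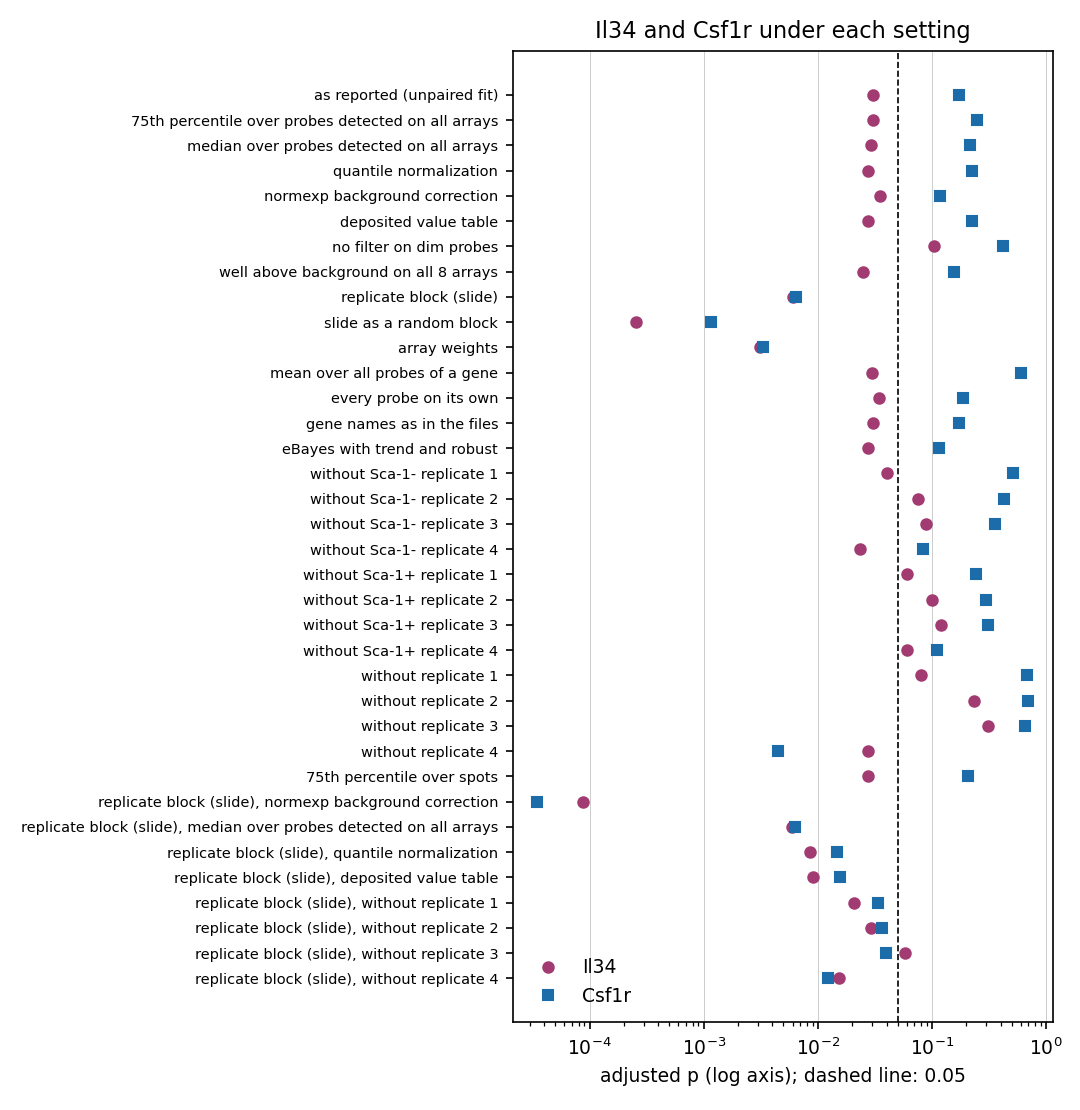
Adjusted p (limma, Benjamini-Hochberg over all tested genes, log axis) of the Il34 and the Csf1r difference under each analysis setting, 1 row a setting, with a dashed line at 0.05. Il34 passes when all arrays are kept except without the filter on dim probes, and Csf1r passes wherever the slide is a block, and with array weights or without replicate 4.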

How the data were processed

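Per the file headers, the authors extracted spot intensity on a linear scale with Agilent Feature Extraction 10.7.3.1, which had already corrected it for background, and probe positions refer to mm9. Per the labels, each array took Cy3-labelled RNA made from 100 ng. The deposited series table holds the authors' log2 values, with a median of 3.90 per array. Its columns correlated with their own arrays at 0.998 to 1.00. It served as an alternative, since its direction and scale match and its centring is not stated.

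Control and outlier spots (105 to 162 per array) were left out, spots of a probe were averaged as log2, and each array's 75th percentile over probes was subtracted. A probe counted as well above background on an array if over 50% of its spots did. The main test was limma 3.58.1 (R 4.3.3), unpaired and two-sided, with Benjamini-Hochberg adjustment over all tested genes and a threshold of 0.05. Gene names came from the accession for 26582 probes, from a symbol for 3094 and from the files for the other 26005. The fits were tested on simulated data with independent noise on each array and no slide effect. The choice between the unpaired and the blocked fit was not tested there.

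Arrays with the same replicate number share a slide, and their deviations from the group means correlated at 0.44, 0.43, 0.64 and 0.89. Arrays of different slides among replicates 1 to 3 correlated at 0.12 to 0.54, so there a shared slide was not always the closest match. Arrays of replicate 4 correlated with those of other slides at -0.72 to -0.39. A group's deviations from its mean cancel out for each gene. Where 1 replicate stands apart, negative values for it and positive ones among the others therefore follow in part from the calculation. The replicate number was treated as pairing only in the blocked fit (slide), which is printed where it changes a call and for some other genes. Standard errors and intervals are those of the unpaired fit unless the block is named. The slide also holds the scan day. The alternatives were other scalings, backgrounds, filters, blocks and weights, and fits with arrays left out.

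The members and lists were chosen with earlier results of these data known. Named genes are the members, the 3 genes with the most similar pattern for each member called in either fit, and genes of the lists called in either fit. Some genes of the lists are not reported here by name. Ligand and marker genes given without a call, and Spi1, Sdc1 and Csf2rb2, were named from those lists after their values were seen. Whether probes lie in exons or untranslated regions was not analysed here.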

Additional observations from a re-analysis of the deposited data

Results flagged for a closer look

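Of 32 groups of 4 levels (16 probes in both groups), 5 had a sample whose gap to the nearest other passed Dixon's 95% critical value as a share of the group's range, a limit that about 1 in 20 groups pass by chance alone. All 5 samples were replicate 4. Csf1r was the lowest there in Sca-1+ on its main probe (2.45, the others 3.65 to 3.74) and on the probe at base 1841 (0.39, the others 1.24 to 1.32). Flt3 probe A_55_P2055242 was the lowest in Sca-1- (2.12, the others 2.72 to 2.82). Csf2rb's second probe was the highest in Sca-1+ (2.42, the others 1.63 to 1.69), and Kit the highest in Sca-1- (0.29, the others -1.10 to -0.89). Replicate 4 was scanned on another day and with another extraction protocol, and the part of either in these values was not tested.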

How the results depend on the processing

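The differences of Il34 (higher), Csf1r, Flt3, Kit and Il3ra (lower) and Csf2ra (higher) kept their sign in all 26 alternatives planned for each. Csf2rb turned to -0.015 with array weights, and without 1 array it was -0.11 to 0.19, below 0 without Sca-1- replicate 2, Sca-1- replicate 3 or Sca-1+ replicate 4. Csf3r was -0.11 to 0.35 without 1 array, below 0 without Sca-1- replicate 4. Neither was called. Without the filter on dim probes 182 genes and 0 members were called, and Il34 (1.16) no longer passed (limma, adjusted p = 0.105), with more genes tested. With the replicate block (slide) 1232 genes and 2 members were called, with the slide as a random block 2292 and 2, and with array weights 1469 and 2. In these 3 fits Csf1r passed, at -1.19, -1.19 and -1.08. The share of called genes that were lower was 92.6% as reported and 66.2%, 59.6% and 67.5% in these fits. Without 1 array 163 to 462 genes and 0 to 1 members were called, with Il34 at 0.97 to 1.25 and Csf1r at -1.37 to -0.88. Without both samples of a replicate number it was 1, 2, 29 and 879 genes for replicates 1 to 4 and 0 to 2 members, with Il34 at 1.05 to 1.24 and Csf1r at -1.27 to -1.06.

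The following were chosen after seeing the data. With the replicate block and normexp, 2129 genes and 3 members were called, Il3ra being the third (-0.38, limma, adjusted p = 0.0139), and Csf1r was -1.20. With the replicate block and median scaling, quantile normalization or the deposited values, 1238, 1260 and 1243 genes and 2 members each were called, and Csf1r was -1.19, -1.16 and -1.15. With the replicate block and 1 replicate number left out, 291 to 940 genes (549 without replicate 2) and 1 to 2 members were called. In these fits Csf1r passed in 4 of 4 (-1.24, -1.21, -1.27 and -1.06 without replicates 1 to 4) and Il34 in 3 of 4, not without replicate 3 (1.14, limma, adjusted p = 0.0585). The cause of these changes was not tested. With the scaling and values as reported, the block changed the call of no member but Csf1r; with normexp it also changed that of Il3ra. With 4 arrays a group the number of arrays limits the precision, and Csf1 gives no value because its probes are near background.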
